A study of Mus musculus with 33 samples.

Results

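The CD28 receptor family was examined in colon regulatory T cells (Treg) of mice. Its 5 members here were Cd28, Ctla4, Icos, Pdcd1 and Btla, taken by matching Ensembl gene IDs to symbols: 5 of the 53465 genes in the count table. All 5 passed the filter on low counts, which left 14861 genes for testing across Treg libraries. The series asks how the cytokines TSLP and IL-33 bear on Treg in colorectal cancer. Treg were sorted from the colon by their receptors TSLPR (gene Crlf2) and ST2 (gene Il1rl1), 200 cells to a library, as CD45+, TCR+, CD4+, Foxp3+ cells. RNA was amplified as full-length cDNA and read as single reads of 58 bases.

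The cancer groups came from mice 5 to 8 and the naive groups from mice 1 to 4, all Foxp3-yfp reporter animals labelled B6. Every mouse gave 4 gates: the 2 TSLPR+ gates, with ST2 (TSLPR+ST2+) and without it (TSLPR+ST2-), and likewise TSLPR-ST2+ and TSLPR-ST2-. Thus the 32 Treg libraries form 8 groups of 4 mice. The general protocol gives 7 to 12 weeks as the age of mice. For cancer it gives 1 injection of azoxymethane (AOM, 10 mg/kg) and, on the C57BL/6 background, 3 cycles of dextran sodium sulfate (DSS) in the drinking water for 7 days each, with tissue taken 2 weeks after the last DSS. AOM alone or DSS alone was given to no group, so tumours, recent colitis and the chemicals cannot be told apart. The labels do not say whether naive mice were mock-treated. A further library of naive Foxp3- CD44low T cells has no replicate.

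CD28 is the receptor through which T cells receive the main costimulatory signal, given by CD80 and CD86 on antigen-presenting cells. CTLA-4 binds the same ligands more tightly, is held largely inside the cell and can strip the ligands from neighbouring cells, and Treg use it to restrain immune responses. ICOS, a costimulatory receptor for ICOSL, supports effector Treg and follicular T cells, while PD-1 (Pdcd1), which binds PD-L1 and PD-L2, and BTLA, which binds HVEM of the TNF receptor superfamily, are inhibitory receptors that recruit tyrosine phosphatases.

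By the GRCm38 annotation, 3 members lie side by side on the + strand of chromosome 1: Cd28 at chr1:60716800-60773359, Ctla4 at chr1:60887000-60915832 and Icos at chr1:60977927-61000320. The gap between Cd28 and Ctla4 is 113640 bases and that between Ctla4 and Icos is 62094 bases. Pdcd1 lies farther along the same chromosome on the - strand (chr1:94038305-94052553), and Btla lies on the + strand of chromosome 16 (chr16:45224315-45257670). The pseudogene Rpl18-ps1 lies in an intron of Ctla4 and the predicted transcript Gm37039 in an intron of Icos, and neither overlaps an exon of the member. Promoters of 3 members were found among the RefSeq promoters of GRCm38.p6, each running from 250 bases before the RefSeq start to 50 bases after it. They are shown because Ctla4 and Pdcd1 were higher in the same gates in the results below while Btla was not. Capitals mark GGAAA or its reverse complement TTTCC, the core that NFAT factors bind. The Ctla4 promoter is at chr1:60908775-60909074 (+ strand), which is inside the longer annotated gene. The Pdcd1 promoter is at chr1:94052504-94052803 (- strand) and the Btla promoter at chr16:45224087-45224386 (+ strand).
Ctla4: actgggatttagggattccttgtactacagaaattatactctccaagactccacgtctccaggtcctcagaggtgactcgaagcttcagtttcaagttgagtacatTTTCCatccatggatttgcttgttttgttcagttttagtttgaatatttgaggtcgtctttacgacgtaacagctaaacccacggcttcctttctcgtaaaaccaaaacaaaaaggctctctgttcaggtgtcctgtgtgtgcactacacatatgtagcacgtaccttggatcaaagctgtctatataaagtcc
Pdcd1: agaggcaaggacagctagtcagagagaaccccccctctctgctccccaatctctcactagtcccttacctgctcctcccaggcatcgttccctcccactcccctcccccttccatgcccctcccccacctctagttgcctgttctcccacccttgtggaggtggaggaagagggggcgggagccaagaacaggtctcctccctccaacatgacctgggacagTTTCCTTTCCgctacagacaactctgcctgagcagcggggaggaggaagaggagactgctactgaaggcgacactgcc
Btla: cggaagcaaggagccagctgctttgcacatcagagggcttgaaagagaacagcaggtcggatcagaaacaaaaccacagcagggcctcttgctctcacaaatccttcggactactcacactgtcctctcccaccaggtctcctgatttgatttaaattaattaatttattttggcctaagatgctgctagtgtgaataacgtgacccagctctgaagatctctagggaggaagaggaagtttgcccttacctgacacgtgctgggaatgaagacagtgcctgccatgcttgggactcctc
The Ctla4 window held 1 match to the NFAT core, the Pdcd1 window 2 matches and the Btla window 0, counting both strands. Of 32851 promoters of that length, 61.3% held at least 1 match, so that a match in 2 of 3 windows is close to the share in all promoters. The letters TATAAA occurred 1 time in the Ctla4 window and 0 times in the others (13.6% of all promoters on either strand), and TGACTCA or TGAGTCA, the AP-1 motif, in none of the 3 (5.2% of all promoters). These are descriptions of letters in a window.

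Library totals ran from 4038718 to 8839946 counts, with 14632 to 16845 genes detected. Levels below are counts per 1000000 (CPM) scaled by trimmed mean of M values (TMM), and values after ± are standard deviations (SD). A mouse is the replicate, and the libraries of 1 mouse share the animal. Markers of T cells and Treg were present throughout, as the sort labels say: Ptprc, Cd3e, Cd4, Foxp3, Il2ra and Ikzf2 were detected in 32 of 32 Treg libraries. Libraries also held transcripts of other cells, and the summed levels of their markers are given beside the TSLPR, ST2 and cancer comparisons. In mouse 5, Crlf2 was at 25.3 CPM in the TSLPR+ST2+ library and 30.0 CPM in the TSLPR-ST2+ library, against the gate labels. The cancer TSLPR+ST2+ library of mouse 7 stood apart with 2470 CPM summed over 6 epithelial markers, against at most 177 CPM in the naive libraries. In bulk RNA, fewer cells of a type and less RNA per cell cannot be told apart.

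**Figure D1:**
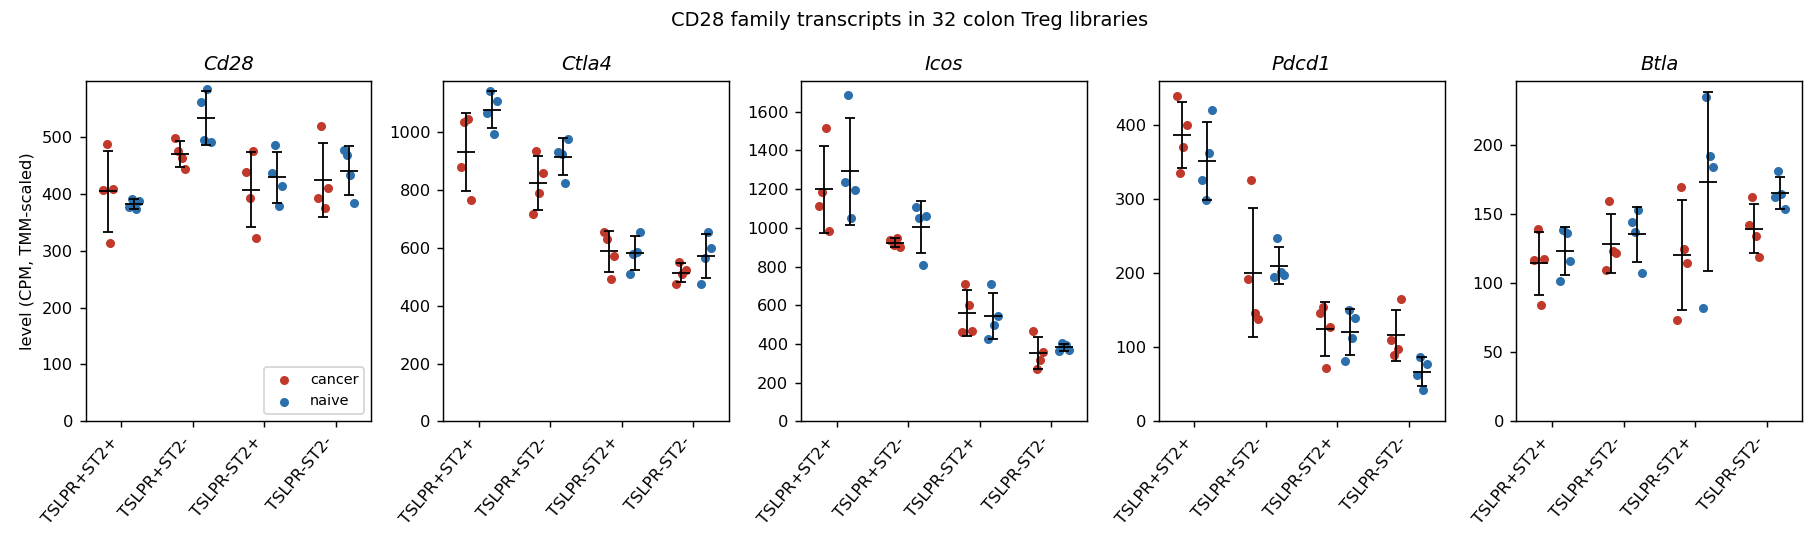
Level of each family member (CPM, TMM-scaled, vertical axes from 0) in the 4 gates, with cancer mice in red left of naive mice in blue; each point is 1 library, and black bars give the mean ± SD of 4 mice. Ctla4, Icos and Pdcd1 stand higher in the 2 TSLPR+ gates at left of each panel, while Cd28 and Btla vary less between groups.

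Divided by exon length, Ctla4 was the most abundant member across the 32 Treg libraries at 322 ± 91.6 CPM per kilobase, followed by Icos at 228 ± 109. Pdcd1 averaged 102 ± 61.0 CPM per kilobase, Cd28 71.3 ± 10.3 and Btla 40.5 ± 10.1. The members differed in how widely they varied over the 8 groups: the highest group mean was 5.76 times the lowest for Pdcd1, 3.66 times for Icos, 2.09 times for Ctla4, 1.51 times for Btla and 1.39 times for Cd28. The inhibitory receptor PD-1 and the costimulatory receptor ICOS were thus the most variable transcripts, and CD28 itself the steadiest. Of the family's summed per-length level in TSLPR+ libraries, Ctla4 made up 41.0 ± 2.60%, Icos 32.6 ± 3.12%, Pdcd1 14.9 ± 4.26%, Cd28 7.66 ± 2.01% and Btla 3.83 ± 0.834% (n = 16). In TSLPR- libraries the shares were 44.6 ± 4.14% for Ctla4, 24.3 ± 4.44% for Icos, 12.9 ± 2.22% for Cd28, 10.1 ± 2.96% for Pdcd1 and 8.09 ± 1.93% for Btla (n = 16). Pdcd1 therefore ranked above Cd28 in mean share in TSLPR+ libraries and below it in TSLPR- libraries, where the ranges overlapped (4.05 to 16.6% and 9.55 to 17.2%). These orders rest on the length of all annotated exons, 6122 bases for Cd28 and 1930 for Pdcd1. Before that division Cd28 was above Pdcd1 in TSLPR+ libraries too (447.6 against 287.6 CPM). Icos was then above Ctla4 over all Treg libraries (782.7 against 751.2 CPM).

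TSLPR+ Treg carried more Ctla4, Icos and Pdcd1 transcript than TSLPR- Treg, in cancer and naive mice alike. Icos was 2.43-fold higher, Pdcd1 2.65-fold and Ctla4 1.66-fold, while Cd28 and Btla did not pass the test. Thus 3 of 5 members were called higher and 0 lower at an adjusted p under 0.05 (edgeR quasi-likelihood test with Benjamini-Hochberg adjustment over all genes), where 13.4% of the 14861 genes were called and 7.97% were called higher. The median log2 difference was 0.73 over the 5 members and 0.01 over all genes tested.

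For Ctla4, the cancer TSLPR+ST2+ libraries had 879.5, 1036, 1047 and 767.2 CPM, and the cancer TSLPR-ST2+ libraries 654.3, 632.1, 492.9 and 572.1 CPM (mice 5 to 8). The cancer TSLPR+ST2- libraries had 716.0, 935.4, 790.0 and 860.8 CPM, and the cancer TSLPR-ST2- libraries 474.5, 549.6, 510.1 and 524.9 CPM. No TSLPR+ library of a cancer mouse was as low as any TSLPR- library. In naive mice 1 to 4, Ctla4 was at 1066, 1144, 994.3 and 1107 CPM in TSLPR+ST2+ libraries and at 509.9, 578.3, 585.2 and 656.5 CPM in TSLPR-ST2+ libraries. The naive TSLPR+ST2- libraries had 933.5, 926.1, 825.3 and 977.1 CPM, and the naive TSLPR-ST2- libraries 473.5, 563.6, 656.5 and 598.1 CPM. Over all mice the 16 TSLPR+ libraries (716.0 to 1144 CPM) did not overlap the 16 TSLPR- libraries (473.5 to 656.5 CPM). The share of all genes that separate in this way was not counted, so the separation is a description only. The difference was 0.73 ± 0.05 (log2, SE; edgeR adjusted p = 1.19e-10), and the TSLPR+ library was the higher in 16 of 16 pairs of gates within a mouse.

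Icos, the costimulatory receptor, had 1112, 1185, 1515 and 986.0 CPM in cancer TSLPR+ST2+ libraries, against 459.9, 710.5, 599.6 and 468.3 CPM in cancer TSLPR-ST2+ libraries. The cancer TSLPR+ST2- libraries had 935.7, 911.9, 947.9 and 899.6 CPM, against 467.8, 269.7, 317.1 and 358.0 CPM in the TSLPR-ST2- libraries of the same mice. Cancer TSLPR+ST2- libraries were the most even, and the highest value of the cancer gates was in mouse 7, the library with epithelial transcripts. Naive TSLPR+ST2+ libraries had 1236, 1688, 1050 and 1196 CPM, against 427.4, 709.3, 498.2 and 545.6 CPM in naive TSLPR-ST2+ libraries. Naive TSLPR+ST2- libraries had 1107, 1051, 808.4 and 1059 CPM, against 362.2, 404.2, 393.6 and 366.0 CPM in naive TSLPR-ST2- libraries. Here too the TSLPR+ libraries (808.4 to 1688 CPM) and TSLPR- libraries (269.7 to 710.5 CPM) did not overlap, again with no count over all genes. The difference was 1.28 ± 0.08 (log2, SE; edgeR adjusted p = 1.11e-11), with TSLPR+ the higher in 16 of 16 gate pairs.

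Pdcd1 had 439.9, 335.5, 371.1 and 400.8 CPM in cancer TSLPR+ST2+ libraries, against 145.9, 153.8, 71.67 and 127.5 CPM in cancer TSLPR-ST2+ libraries. The cancer TSLPR+ST2- libraries had 192.9, 326.4, 146.6 and 138.0 CPM, against 110.5, 89.76, 97.94 and 165.6 CPM in cancer TSLPR-ST2- libraries. Mouse 8 was the exception, its TSLPR+ST2- library lying below its TSLPR-ST2- library. In naive TSLPR+ST2+ libraries Pdcd1 was at 326.3, 298.9, 363.1 and 420.9 CPM, against 81.56, 150.2, 112.3 and 139.8 CPM in naive TSLPR-ST2+ libraries. Naive TSLPR+ST2- libraries had 194.8, 247.6, 201.1 and 197.8 CPM, against 62.34, 86.98, 42.02 and 77.08 CPM in naive TSLPR-ST2- libraries. TSLPR+ was the higher in 15 of 16 gate pairs and in 8 of 8 mice when gates were averaged, though the ranges overlapped (138.0 to 439.9 CPM in TSLPR+ and 42.02 to 165.6 CPM in TSLPR- libraries). The difference was 1.40 ± 0.13 (log2, SE; edgeR adjusted p = 5.97e-09).

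Cd28, the founding member, ranged from 314.1 to 584.9 CPM (median 453.7) in TSLPR+ libraries and from 322.3 to 520.1 CPM (median 423.4) in TSLPR- libraries. Its difference of 0.06 ± 0.06 (log2, SE; edgeR adjusted p = 0.594) has a 95% interval that reaches from 0.958 to 1.14 as a fold. Btla ranged from 84.43 to 159.4 CPM (median 122.8) in TSLPR+ libraries and from 73.06 to 234.9 CPM (median 158.1) in TSLPR- libraries. The Btla difference of -0.24 ± 0.11 (log2, SE) had an unadjusted p of 0.0409 and an edgeR adjusted p of 0.17. TSLPR+ was the higher in 9 of 16 gate pairs for Cd28 and in 4 of 16 for Btla.

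The same 3 members passed within each status. In cancer mice, where 7.11% of genes were called, Icos was 2.37-fold, Pdcd1 2.32-fold and Ctla4 1.60-fold higher in TSLPR+ Treg. In naive mice, where 4.48% were called, Pdcd1 was 3.02-fold, Icos 2.50-fold and Ctla4 1.72-fold higher. None of the 5 members had a TSLPR difference that itself differed between cancer and naive mice by the interaction test (edgeR adjusted p from 0.759 for Pdcd1 to 1). That test called 0 of 14861 genes (0%), with 7.93% at an unadjusted p under 0.05.

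Marker lists of other cell states moved with the TSLPR gate, and their part in the results was not tested. All 6 naive T cell markers were lower in TSLPR+ libraries, with a summed level of 1350 to 3550 CPM in TSLPR+ and 3830 to 5640 CPM in TSLPR- libraries. Of the follicular markers, Tox2 was 3.46-fold and Sh2d1a 1.36-fold higher in TSLPR+ libraries (edgeR adjusted p = 2.72e-05 and 0.000197), Cxcr5 and Bcl6 did not pass, and Il21 was not among the genes tested. The 5 follicular markers summed to 293 to 511 CPM in TSLPR+ and 161 to 451 CPM in TSLPR- libraries. Macrophage and dendritic markers summed to 115 to 2030 CPM in TSLPR+ and 2.51 to 2300 CPM in TSLPR- libraries (6 of 7 called higher). Within ST2+ gates alone none of these 6 calls held (for example edgeR adjusted p = 0.825 for C1qa and 0.2 for Cd68). Lyz2 lost its call in 9 of 19 alternatives and Adgre1 in 7 of 19. B and plasma cell markers summed to 7.00 to 523 CPM in TSLPR+ and 1.70 to 70.7 CPM in TSLPR- libraries (4 of 5 called higher). Epithelial markers summed to 30.3 to 2470 CPM in TSLPR+ and 10.6 to 74.4 CPM in TSLPR- libraries (2 of 4 tested called higher). Neither of the 2 CD8 and NK markers tested was called. Of all these markers, Ncr1 was at 0 in every TSLPR- library, and no marker was at 0 in every TSLPR+ library. Of the 6 T cell and Treg markers, 2 were higher in TSLPR+ libraries, Ikzf2 and Cd3e (edgeR adjusted p = 0.000125 and 0.0292), and 0 lower. The Cd3e call was lost in 7 of 19 alternatives, among them the mitochondrial share of counts as a covariate (edgeR adjusted p = 0.118). Without the epithelial-rich library of mouse 7, Ctla4, Icos and Pdcd1 still passed.

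ST2+ Treg carried more Icos and Pdcd1 than ST2- Treg, and slightly less Cd28. Of the 5 members, 2 were called higher (3.7% of all genes) and 1 lower (2.33%), where 6.04% of genes were called in all. The median log2 difference was 0.16 over the members and -0.01 over all genes tested. Icos averaged 899.1 ± 400.7 CPM in ST2+ and 666.2 ± 318.7 CPM in ST2- libraries, and Pdcd1 246.2 ± 133.4 CPM in ST2+ and 148.6 ± 75.9 CPM in ST2- libraries (SD, n = 16 libraries of 8 mice each). These SDs are wide because each side holds both TSLPR gates. Within the mouse, Icos was the higher in ST2+ in 15 of 16 gate pairs and Pdcd1 in 14 of 16. The difference was 0.48 ± 0.08 for Icos (log2, SE; 1.39-fold, edgeR adjusted p = 0.000454) and 0.66 ± 0.13 for Pdcd1 (1.58-fold, edgeR adjusted p = 0.00133).

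The Icos and Pdcd1 differences were not evenly spread over the TSLPR gates in size, although the ST2 difference did not pass a test of change between TSLPR+ and TSLPR- gates for any member. Among TSLPR+ gates alone, Pdcd1 was 1.80-fold higher in ST2+ libraries (edgeR adjusted p = 0.00805) and Icos 1.29-fold (adjusted p = 0.0991). Among TSLPR- gates alone, Icos was 1.5-fold higher (edgeR adjusted p = 0.00563) and Pdcd1 1.39-fold (adjusted p = 0.206). These splits by gate were chosen after the data were seen. For both genes the interaction had an edgeR adjusted p of 0.885 (Icos) and 0.855 (Pdcd1), in a test that called 0 genes (0%), with 7.36% at an unadjusted p under 0.05.

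Cd28 averaged 405.9 ± 50.9 CPM in ST2+ and 467.1 ± 59.9 CPM in ST2- libraries (SD, n = 16 each), a difference of -0.20 ± 0.06 (log2, SE; 1.15-fold lower, edgeR adjusted p = 0.0462). ST2+ was the lower in 8 of 8 mice when gates were averaged. The gap was widest in naive TSLPR+ libraries, where the ST2+ values of 377.3, 391.7, 373.4 and 388.3 CPM stood below the ST2- values of 560.8, 494.9, 584.9 and 492.0 CPM in mice 1 to 4. In cancer TSLPR+ libraries the ST2+ values were 407.5, 488.0, 314.1 and 408.2 CPM and the ST2- values 497.9, 474.7, 463.8 and 443.7 CPM, which overlap. The ST2 difference of Cd28 changed between TSLPR+ and TSLPR- gates with an unadjusted p of 0.0194 and an edgeR adjusted p of 0.51. The call was marginal: it was lost in 13 of 19 alternative analyses, among them the fit with the mouse as a replicate block (adjusted p = 0.0517). Ctla4 averaged 795.1 ± 236.7 CPM in ST2+ and 707.2 ± 184.3 CPM in ST2- libraries and missed the limit (log2 0.16 ± 0.05, SE; edgeR adjusted p = 0.0822), though RLE size factors (0.0454) and DESeq2 (0.0187) brought it under. Btla averaged 133.0 ± 43.8 CPM in ST2+ and 142.4 ± 21.7 CPM in ST2- libraries (edgeR adjusted p = 0.676).

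Within cancer mice, where 2.35% of genes were called for ST2, 1 of 5 members passed, Icos (1.43-fold, edgeR adjusted p = 0.0139; Pdcd1 was at 0.117). Within naive mice, where 0.962% were called, 1 of 5 passed, Pdcd1 (1.74-fold, edgeR adjusted p = 0.0227; Icos was at 0.0748). Passing in 1 status and not in the other is not a difference between them: no member's ST2 difference changed with status by the interaction test (adjusted p from 0.983 to 1; 0 genes called, 0%, with 6.23% at an unadjusted p under 0.05). Without mouse 6 or mouse 7 the Icos call in cancer mice was lost, and without any 1 of mice 1 to 4 the Pdcd1 call in naive mice was lost (adjusted p as high as 0.132 for Icos and 0.257 for Pdcd1). Macrophage and dendritic markers moved with the ST2 gate, summing to 297 to 2300 CPM in ST2+ and 2.51 to 1140 CPM in ST2- libraries, with 6 of 7 called higher. Cd68 kept its call in 19 of 19 alternatives. Lyz2, Csf1r, C1qa and C1qb lost theirs within TSLPR+ gates alone, and Itgax lost its call in 8 of 19. The epithelial marker Epcam was 2.64-fold higher in ST2+ libraries (edgeR adjusted p = 0.00118; 1 of 4 tested epithelial markers called), with epithelial sums of 10.6 to 2470 CPM in ST2+ and 12.4 to 93.6 CPM in ST2- libraries. The follicular marker Tox2 was 2.13-fold higher in ST2+ libraries (edgeR adjusted p = 0.0114, and 0.0609 without mouse 2) and 2 of 6 naive T cell markers were lower, among them Ccr7 (log2 -0.57, edgeR adjusted p = 0.000783). Of the 6 T cell and Treg markers, 1 was higher in ST2+ libraries, Ikzf2 (edgeR adjusted p = 0.00531), and 3 were lower (2.33% of all genes). The lower ones were Il2ra (edgeR adjusted p = 1.4e-05, kept in 19 of 19 alternatives), Foxp3 (0.024) and Cd3e (0.041, lost in 13 of 19). The part of these markers in the ST2 results was not tested.

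**Figure D2:**
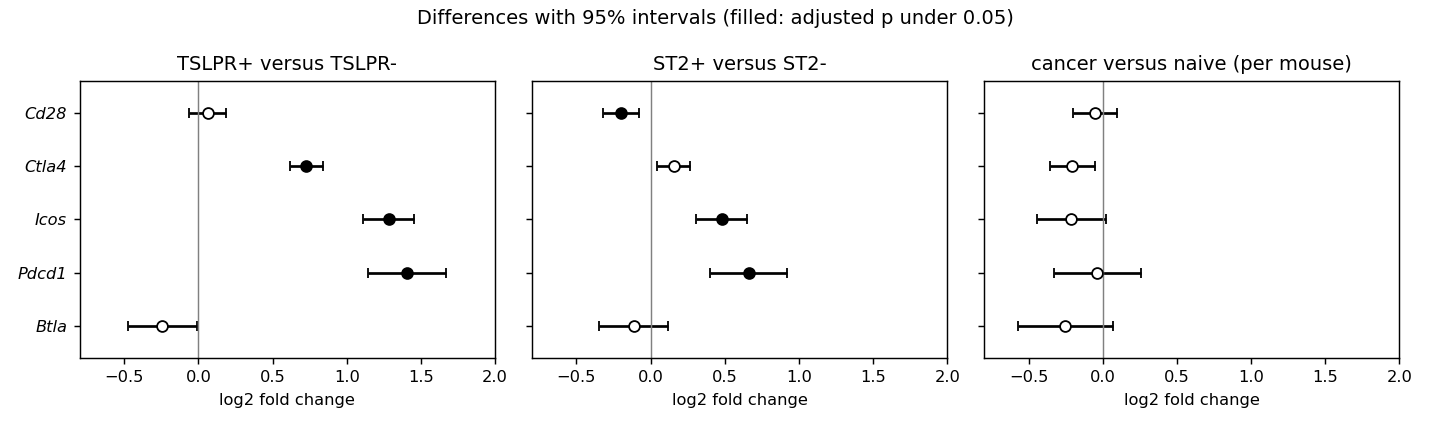
Log2 fold change of each member with its 95% interval for TSLPR+ versus TSLPR-, ST2+ versus ST2- and cancer versus naive (per-mouse sums); filled points have an edgeR adjusted p under 0.05. Ctla4, Icos and Pdcd1 lie at 0.73, 1.28 and 1.40 for TSLPR, and no point is filled for cancer versus naive.

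None of the 5 members was called between cancer and naive mice. With the 4 gates of each mouse summed, Ctla4 averaged 694.5 ± 51.8 CPM in cancer and 800.8 ± 52.8 CPM in naive mice (SD, n = 4 each), a difference of -0.21 ± 0.07 (log2, SE; unadjusted p = 0.0129, edgeR adjusted p = 0.167). The ranges overlapped, cancer mice lying at 660.7 to 771.6 CPM and naive mice at 739.7 to 861.6 CPM. Here 1.21% of 15338 genes were called (186 genes) and 16.9% had an unadjusted p under 0.05. The 186 calls became 28 to 98 with any 1 mouse left out and 0 with the mitochondrial share of counts as a covariate. That share was 1.39 to 1.88% in the cancer animals, against 0.775 to 1.15% in the naive ones. Because the shares did not overlap, the covariate is tied to status. A call lost with it therefore does not show whether share or status goes with the difference. The median log2 difference was -0.21 over the members and 0.01 over all genes tested. Icos averaged 718.5 ± 47.8 CPM in cancer mice, against 832.6 ± 133.8 CPM in naive mice. Btla averaged 125.8 ± 22.1 CPM in cancer mice, against 149.8 ± 23.1 CPM in naive mice. Cd28 (428.2 ± 33.5 CPM in cancer, 443.4 ± 20.9 CPM in naive mice) and Pdcd1 (192.4 ± 28.3 CPM in cancer, 197.5 ± 28.7 CPM in naive mice) were closer still. The edgeR adjusted p values of these 4 ran from 0.341 to 0.927. The 95% intervals of the cancer to naive ratio reached from 0.781 to 0.963 for Ctla4, 0.734 to 1.02 for Icos, 0.672 to 1.05 for Btla, 0.871 to 1.07 for Cd28 and 0.794 to 1.2 for Pdcd1. A change by a factor of 2 therefore lies outside all 5 intervals of the per-mouse sums, which does not speak for single gates. Markers of other cells also moved in this comparison: of 7 macrophage and dendritic markers, 2 were lower in cancer mice, Cd68 (2.38-fold, edgeR adjusted p = 0.0278) and C1qb (2.19-fold, adjusted p = 0.0346). The list summed to 2.51 to 1900 CPM in cancer and 11.7 to 2300 CPM in naive libraries. Of the 6 T cell and Treg markers, Il2ra, the IL-2 receptor alpha chain, was 1.52-fold lower in cancer mice (edgeR adjusted p = 0.0131), and of 5 epithelial markers tested 0 passed. With the mitochondrial covariate these 3 calls were lost too, as were those of C1qb without any 1 of the 8 mice, of Cd68 without any 1 of mice 1, 2, 3, 5, 6 and 8 and of Il2ra without mouse 6 (adjusted p up to 0.109, 0.0887 and 0.0554). Their part in the results was not tested.

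Gate by gate, 0 of 5 members passed in TSLPR+ST2+ (4.16% of genes called), TSLPR+ST2- (0.0471%), TSLPR-ST2+ (0.202%) or TSLPR-ST2- (0.209%). DESeq2 too called 0 of 5 per mouse and in each gate. Of its 31358 genes it called 1321 per mouse and 95 to 1315 by gate. The smallest unadjusted p was that of Pdcd1 in TSLPR-ST2- Treg, whose 4 cancer values (89.76 to 165.6 CPM) lay above the 4 naive ones (42.02 to 86.98 CPM). The difference was 1.73-fold (unadjusted p = 0.00455, edgeR adjusted p = 0.444). Btla in TSLPR-ST2+ Treg averaged 120.6 ± 39.8 CPM in cancer and 173.5 ± 64.9 CPM in naive libraries (SD, n = 4 each; unadjusted p = 0.0285, edgeR adjusted p = 0.415). Mitochondrial reads made up 1.43 to 3.23% of counts in cancer TSLPR+ST2+ libraries and 0.618 to 1.24% in naive ones, ranges that do not overlap. With that share as a covariate 4 genes were called in that gate, in place of 618, and 0 of 5 members. What the share stands for was not tested.

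Ordered by level, the 4 TSLPR+ groups ranked 1 to 4 for Ctla4 and for Icos. For Ctla4 the naive TSLPR+ST2+ group was highest (1078 ± 64.2 CPM) and the cancer TSLPR-ST2- group lowest (514.8 ± 31.4 CPM), and 1 of 7 neighbouring pairs did not overlap, at the step between TSLPR+ and TSLPR- groups. Icos ran in the same group order at all 8 ranks, from 1292 ± 275.5 CPM in naive TSLPR+ST2+ to 353.1 ± 84.5 CPM in cancer TSLPR-ST2- libraries, with 2 of 7 neighbouring pairs apart. The lower of these steps lay between naive TSLPR-ST2+ (427.4 to 709.3 CPM) and naive TSLPR-ST2- libraries. It was not a full break, since cancer TSLPR-ST2- libraries, ranked lowest, reached 467.8 CPM. Pdcd1 was highest in the TSLPR+ST2+ groups (386.8 ± 44.3 CPM in cancer, 352.3 ± 52.8 CPM in naive) and lowest in naive TSLPR-ST2- Treg (67.1 ± 19.6 CPM). The naive TSLPR+ST2+ group lay apart from the next in order, naive TSLPR+ST2-, but its range held the 326.4 CPM of mouse 6 in cancer TSLPR+ST2-. The lowest group lay apart from its neighbour in order, cancer TSLPR-ST2-, and overlapped both TSLPR-ST2+ groups. For Cd28, led by naive TSLPR+ST2- Treg (533.1 ± 46.9 CPM), and Btla, led by naive TSLPR-ST2+ Treg (173.5 ± 64.9 CPM), 0 of 7 neighbouring pairs were apart. Pairs apart were not counted for other genes, so these counts have no share over all genes beside them.

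Ctla4 and Cd28 compete for the same ligands, so their reads were compared within each library. The ratio of Ctla4 to Cd28 counts does not depend on scaling within a library. Its median was 1.98 in TSLPR+ libraries (range 1.41 to 3.33) and 1.32 in TSLPR- libraries (range 0.991 to 1.77), with n = 16 each. Within mice the ratio was 1.58-fold higher in TSLPR+ gates, in 8 of 8 mice. ST2+ libraries had a median of 1.83 and ST2- libraries 1.48, a within-mouse difference of 1.28-fold, again in 8 of 8 mice. Both had p = 0.00781 by a two-sided exact permutation test of sign flips, the smallest that 8 mice allow (0.0117 after Benjamini-Hochberg adjustment over 3 tests). For cancer against naive mice, with gates summed, cancer mice had ratios of 1.51 to 1.72 and naive mice of 1.60 to 2.07 (n = 4 each; 0.899-fold, exact permutation p = 0.114, where 0.0286 is the smallest possible). Without naive mouse 1 the last difference was -0.21 on the log2 scale (exact permutation p = 0.0286 after adjustment), so that call turned on 1 mouse. Summed over gates, the ratio also depends on the total of each gate. Median ratios of cancer and naive libraries were 1.24 and 1.36 in TSLPR-ST2- and 1.55 and 1.37 in TSLPR-ST2+. They were 1.82 and 1.77 in TSLPR+ST2- and 2.14 and 2.84 in TSLPR+ST2+. The naive TSLPR+ST2+ group was uniform, at 2.66 to 2.92, whereas the cancer TSLPR+ST2+ libraries ran from 1.88 to 3.33. Because the genes differ in exon length, these are ratios of reads and not of molecules.

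**Figure D3:**
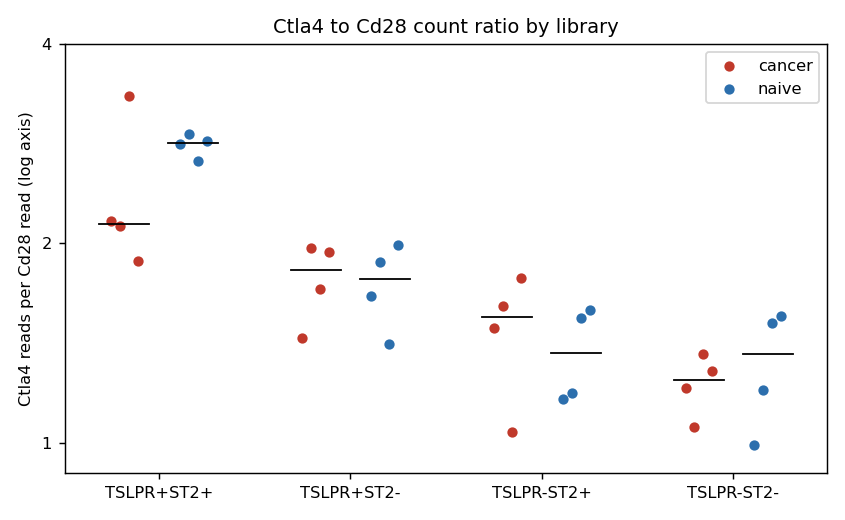
Ctla4 reads per Cd28 read (log axis) in every Treg library by gate, cancer mice in red left of naive mice in blue, with a line at the median of each group of 4. Naive TSLPR+ST2+ libraries sit between 2.66 and 2.92, and TSLPR- libraries between 0.991 and 1.77.

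Across the 32 Treg libraries Ctla4, Icos and Pdcd1 varied together, with Pearson's r of log2 CPM (prior count 2) of 0.899 for Ctla4 and Icos, 0.832 for Icos and Pdcd1 and 0.812 for Ctla4 and Pdcd1. Within groups the same r was 0.25, 0.109 and 0.238, so most of the shared variation lay between groups. Cd28 had r between -0.149 and -0.005 with these 3, and Btla between -0.289 and -0.247. These are descriptions over libraries that share mice, gates and scaling. Of 8367 other genes compared, the most alike to Ctla4 were Rilpl2 (r = 0.874), Batf, an AP-1 family transcription factor (0.874), and Ctsb, which encodes cathepsin B (0.863). Icos was most like Glrx, a glutaredoxin (0.900), Batf (0.892) and the transcription factor Maf (0.884), and Pdcd1 was most like Ndfip1, an adaptor of ubiquitin ligases (0.893), Rilpl2 (0.873) and Cst7, which encodes cystatin F (0.855). Btla was most like the early activation marker Cd69 (0.745), Fam169b (0.695) and Strn3 (0.650), and the likenesses of Cd28 were weaker: Uckl1 (0.638), Prg4 (0.635) and Trappc1 (0.605).

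Genes that act with the family were read from lists by role. Of 6 ligands, 1 was called for TSLPR, a share near the 13.4% of all genes called: Pdcd1lg2, which encodes PD-L2, was at 42.8 ± 15.2 CPM in TSLPR+ and 24.5 ± 9.25 CPM in TSLPR- libraries (1.74-fold higher, edgeR adjusted p = 0.00282). Cd274, Cd86, Cd80, Icosl and Tnfrsf14 (HVEM) did not pass, and none of the 6 passed for ST2 or for cancer. The ligand list had a median log2 difference of 0.16 for TSLPR, against 0.01 over all genes.

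Of 11 signalling genes downstream of CD28, 6 were lower in TSLPR+ libraries (5.46% of all genes were called lower), 0 were higher and 5 did not pass. Their median log2 difference was -0.28, against 0.01 over all genes. Prkcq, the kinase PKC-theta, averaged 446.2 ± 51.9 CPM in TSLPR+ and 652.2 ± 83.3 CPM in TSLPR- libraries (1.46-fold lower, edgeR adjusted p = 5.03e-07). Pik3cd, the catalytic p110-delta subunit of PI3-kinase, averaged 311.4 ± 86.1 CPM in TSLPR+ and 447.9 ± 124.6 CPM in TSLPR- libraries (1.45-fold lower, edgeR adjusted p = 0.00051). For ST2, Grb2, the adaptor bound by the CD28 tail, was 1.22-fold higher, while Pik3r1, a regulatory PI3-kinase subunit, and the kinase Lck were lower, at -0.26 and -0.17 on the log2 scale (edgeR adjusted p = 0.00129, 0.0123 and 4e-04). The Pik3r1 call was lost without mouse 5 (adjusted p = 0.0729). In cancer mice Carmil2, an adaptor that binds CD28, was at 62.7 ± 9.10 CPM, against 111.6 ± 15.9 CPM in the naive group (n = 4 mice each), a 1.78-fold lower level (edgeR adjusted p = 0.0288), the only 1 of the 11 to pass where 1.21% of genes were called. The Carmil2 call was lost without any 1 of mice 1, 3, 4, 6, 7 and 8 (adjusted p up to 0.0968). It was also lost with the mitochondrial covariate (edgeR adjusted p = 0.631), which is tied to status. Of 4 phosphatases used by the inhibitory members, Ptpn6 (SHP-1) was lower in ST2+ libraries (396.7 ± 58.2 CPM) than in ST2- libraries (474.2 ± 66.8 CPM; log2 -0.26, edgeR adjusted p = 0.0144), a call lost without mouse 1 or mouse 2 (adjusted p up to 0.0931). The 4 did not pass for TSLPR or cancer.

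**Figure D4:**
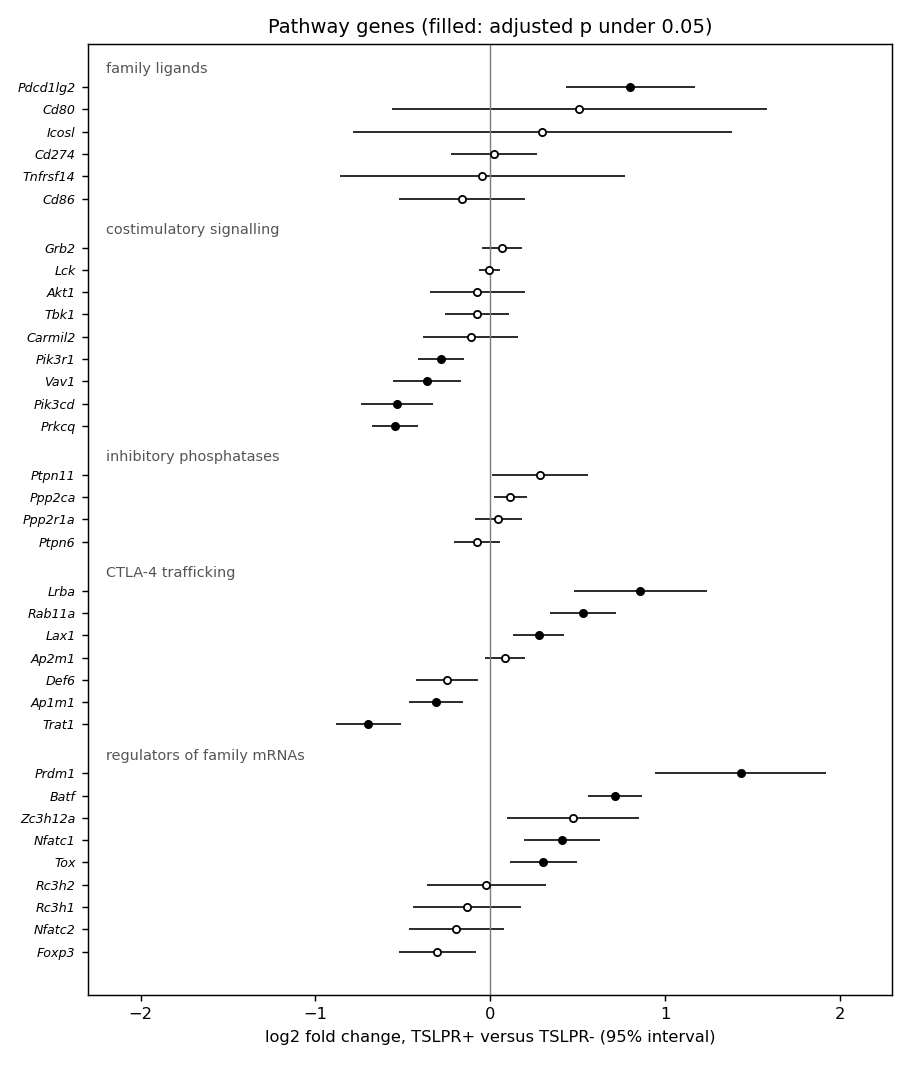
Log2 fold change with 95% interval, TSLPR+ versus TSLPR-, of ligands, signalling genes (9 of the 11 drawn), phosphatases, CTLA-4 trafficking genes and regulators; filled points have an edgeR adjusted p under 0.05. All filled signalling genes drawn lie left of 0, and Prdm1, at 1.43, lies farthest right among the filled points.

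CTLA-4 is moved between the cell surface and internal vesicles, and of 7 genes of that traffic 3 were higher and 2 lower in TSLPR+ libraries (7.97% and 5.46% of all genes). Lrba, which protects CTLA-4 from lysosomal loss, was at 79.1 ± 22.5 CPM in TSLPR+ and 43.6 ± 16.2 CPM in TSLPR- libraries (1.81-fold higher, edgeR adjusted p = 0.00199), and Rab11a, of recycling endosomes, was 1.45-fold higher (adjusted p = 0.000173). The adaptor genes Trat1 (1.62-fold, adjusted p = 3.24e-06) and Ap1m1 (1.24-fold, adjusted p = 0.00537) were lower. The fifth, Lax1, was 1.21-fold higher (adjusted p = 0.00901), but within ST2+ gates alone it differed by only 0.063 on the log2 scale (edgeR adjusted p = 0.812). None of the 7 passed for ST2 or cancer.

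Among 9 regulators of the family's transcripts, 4 were higher in TSLPR+ libraries (7.97% of all genes) and 0 lower. Prdm1, which encodes Blimp-1, averaged 82.5 ± 38.9 CPM in TSLPR+ and 31.1 ± 18.6 CPM in TSLPR- libraries (2.70-fold, edgeR adjusted p = 0.000106). Batf averaged 364.4 ± 59.4 CPM in TSLPR+ and 222.6 ± 31.0 CPM in TSLPR- libraries (1.64-fold, edgeR adjusted p = 9.11e-08), Nfatc1 was 1.33-fold higher (adjusted p = 0.00918) and Tox 1.24-fold (adjusted p = 0.0293). The Tox call was lost without any 1 of mice 1, 2, 3, 4 and 6 (adjusted p up to 0.0791). Foxp3 was lower in ST2+ libraries (126.8 ± 39.7 CPM) than in ST2- libraries (165.6 ± 39.2 CPM; 1.32-fold, edgeR adjusted p = 0.024), a call lost without any 1 of mice 1, 3, 4, 5 and 6 (adjusted p up to 0.108). In cancer mice Prdm1 was at 41.7 ± 7.60 CPM, against 73.4 ± 5.58 CPM in the naive group, a 1.76-fold lower level (edgeR adjusted p = 0.0318), while Pdcd1, Ctla4 and Icos did not pass in that comparison. The Prdm1 call was lost with any 1 mouse but mouse 7 left out (adjusted p up to 0.0873). It was also lost with the mitochondrial covariate (edgeR adjusted p = 0.393), which is tied to status. The lists' median log2 differences for TSLPR were 0.09 for traffic and 0.30 for regulators, against 0.01 over all genes.

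The library of naive Foxp3- CD44low T cells gives the family's levels in a T cell that is not a Treg, with 2 counts of Foxp3. It held Ctla4 at 37.2 CPM (exact Poisson 95% interval 32.8 to 42.0, counting error only), against 467.1 to 1129 CPM in naive Treg libraries on plain library totals. Icos was at 222.9 CPM, against 357.3 to 1665 CPM in naive Treg, and Pdcd1 at 28.9 CPM, against 40.1 to 423.4 CPM. Cd28 (587.4 CPM, against 364.0 to 589.7 CPM) and Btla (200.7 CPM, against 82.2 to 235.2 CPM) lay inside the Treg range. The 3 members below the Treg range in this library are those that were higher in TSLPR+ Treg. How many of all genes lie outside the Treg range in this library was not counted, so the match of these 3 is a description only. It is a single library of another cell type and carries no test.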

How the data were processed

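Treg libraries were sorted from mouse colon and counted per gene. The table deposited by the authors holds raw counts for 53465 Ensembl genes (53274 with a symbol) in 33 libraries, on GRCm38. Per the submitters' processing notes, the tools included SAMtools 1.2, FastQC 0.11.3, Picard 1.134 and HTSeq 0.4.1. The sources used here do not give the aligner, the annotation release or whether counting was stranded. Reads sharing an antisense gene could not be told apart without strand. Positions and exon lengths come from GENCODE M21.

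Counts were tested with edgeR 4.0.16 in R 4.3.3 (quasi-likelihood F-test, robust fit, TMM scaling, filterByExpr with minimum count 10 and minimum total 15, Benjamini-Hochberg adjustment over all genes, limit 0.05). The model held the 8 group means of the 32 Treg libraries and no mouse term. Cancer and naive were also compared per mouse, on raw counts summed over the 4 gates (15338 genes tested), so gates with larger totals weighed more. In all, 14 comparisons were made. Totals per library were 4038718 to 8839946 counts. No 2 libraries held identical values. The edgeR p-values rest on the spread between libraries of different mice in a group, or between mouse sums. Comparisons of gates took the libraries of 1 mouse as independent. For the ratio between gates, p-values rest on differences within mice. A fold is a model estimate. CPM of members use TMM-scaled totals, and those of marker sums, sort genes and the single Foxp3- library plain totals. The scripts were tested on simulated data. The ratio used exact permutation tests with a pseudocount of 0.5 (SciPy 1.17.1).

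Gates of 1 mouse come from the same animal, so mouse numbers pair the gates. Deviations from group means had a mean correlation of 0.00993 over 48 pairs of libraries of the same mouse (from -0.0421 to 0.192) and -0.00331 over 144 pairs from different mice.

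Members and lists were chosen with earlier results of these data known. Text names the 5 members, up to 4 called genes of smallest p in each list and comparison, sort genes where a result turns on them, and the 3 genes most correlated with each member among those of at least 10 CPM (unnamed genes, pseudogenes, mitochondrial, ribosomal protein and antigen receptor genes left out). Lax1 and single markers fall outside that rule and were named after their values were seen. Alternatives were RLE size factors, no filter, DESeq2 1.42.0, each mouse left out, thinned counts, only the 8 libraries of a gate, a mouse block (fixed, or random in limma 3.58.1 voom), mitochondrial share as a covariate and leaving out doubtful libraries. Promoters are RefSeq's. Some genes of the lists are counted but not reported here by name.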

Additional observations from a re-analysis of the deposited data

Results flagged for a closer look

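Pdcd1 in naive TSLPR+ST2- Treg of mouse 2 was at 247.6 CPM, away from the other 3 mice of its group (194.8 to 201.1 CPM). Its gap to the next value was 0.881 of the group's range, above Dixon's 95% limit for 4 samples. Over the 40 groups of member and gate examined, chance alone would mark about 5%.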

How the results depend on the processing

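Under all 19 alternatives Ctla4, Icos and Pdcd1 were called higher in TSLPR+ libraries, with log2 differences of 0.68 to 0.78, 1.17 to 1.39 and 1.22 to 1.59. For ST2, Icos and Pdcd1 each passed in 18 of 19 (Icos not within TSLPR+ gates, Pdcd1 not within TSLPR- gates, where 1 of 5 members passed), while Cd28 passed in 6, with adjusted p from 0.0232 to 0.919. With the mouse as a replicate block, edgeR gave Cd28 an adjusted p of 0.0517 for ST2 and changed no other call of a member. Between cancer and naive mice a fixed block could not be fitted, since each mouse has 1 status. With 1 mouse left out, 2 to 3 members passed for ST2, 0 to 1 in cancer mice and 0 to 1 in naive mice. Over all 15225 to 15359 genes tested, 459 to 783, 179 to 344 and 35 to 168 genes passed in those fits. In naive mice DESeq2, the mitochondrial covariate and leaving out the epithelial-rich library of mouse 7 each gave 2 members in place of 1. Over all genes these 3 fits called 389, 108 and 162, against 143 in the main fit. The log2 Ctla4 to Cd28 difference between cancer and naive mice was -0.21 to -0.087 with 1 mouse left out, passing only without mouse 1.

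Directions turned only for uncalled differences near 0. With the mitochondrial covariate, cancer versus naive was 0.16 for Pdcd1 per mouse and -0.041 for Icos in TSLPR-ST2+, and the cancer minus naive ST2 difference of Icos was -0.034. In TSLPR-ST2+, Ctla4 was -0.012 with thinned counts, and without the ST2+ libraries of mouse 5 Ctla4 was -0.046 and Pdcd1 -0.045. Btla in TSLPR+ST2+ was 0.012 without the library of mouse 7, Cd28 for TSLPR was -0.088 within ST2+ gates, and the ST2 difference of Btla between TSLPR gates was 0.015 with the random replicate block. With 1 mouse left out, cancer versus naive ran from -0.12 to 0.059 for Pdcd1 per mouse. In TSLPR-ST2+ it ran from -0.16 to 0.019 for Cd28, -0.048 to 0.088 for Ctla4, -0.098 to 0.19 for Icos and -0.11 to 0.23 for Pdcd1. It ran from -0.40 to 0.083 for Pdcd1 in TSLPR+ST2- and, in TSLPR+ST2+, from -0.0295 to 0.17 for Cd28 and -0.26 to 0.042 for Icos. ST2 in naive mice ran from -0.12 to 0.14 for Btla. Cancer minus naive ran from -0.017 to 0.11 for Ctla4 and -0.044 to 0.22 for Icos (ST2) and from -0.047 to 0.077 for Cd28 (TSLPR), and TSLPR+ minus TSLPR- from -0.20 to 0.003 for the ST2 difference of Btla. The cause was not tested in any of these. DESeq2, over its 31358 genes, set the median for TSLPR at 0.12 (0.13 and 0.10 for the ST2 and TSLPR differences between cancer and naive mice), so its TSLPR differences are read against that shift. DESeq2 called 52 genes for the ST2 difference and 58 for the TSLPR difference between cancer and naive mice, and 120 for the ST2 difference between TSLPR gates, where edgeR called 0. Genes called over the whole table moved as well: 186 for cancer against naive per mouse, 1321 by DESeq2; 897 for ST2, 459 without mouse 3, 241 and 366 within TSLPR- and TSLPR+ gates; 1996 for TSLPR, 1303 without mouse 1, 761 and 778 within ST2- and ST2+ gates. With 4 mice a group the smallest difference that could be detected was not measured. The simulated data held changes of set sizes only, and their recovery is not reported here. Bcl6 and Cd80, at medians of 3.84 and 5.02 CPM, rest on few reads. Alternatives within gates and without the mouse 7 library were chosen after seeing the data.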
